A study of Mus musculus with 6 samples.

Results

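Neutrophil-primed granulocyte progenitors are marrow cells that have begun to make the proteins of the first neutrophil granules but not yet those of the later ones. They were chosen here from 4 marrow libraries by their own transcripts. A cell needed 500 or more unique molecular identifiers (UMIs, each counted as 1 captured transcript) and at most 10% mitochondrial UMIs. It then needed Mpo at 10 or more UMIs per 10000 (CP10k), Elane above the sum of the monocyte genes F13a1 and Ly86, and Camp, Ngp and Ltf, genes of the later granules, below 100 CP10k in sum. The rule took 3861 of 19522 marrow cells that passed the cell filter, in a table of 28055 cells from 6 libraries. Because Mpo, Elane, F13a1, Ly86, Camp, Ngp and Ltf chose the cells, their levels are given as a description and no test of them is read as a result. They stayed among the genes fitted, so the counts of genes tested and called below include them.

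Neutrophils arise in the marrow from granulocyte-monocyte progenitors. On the neutrophil side, the factors C/EBPα, GFI1 and C/EBPε are switched on in turn, while IRF8 and KLF4 favour the monocyte side. The first granules to be filled are the azurophil granules, which hold myeloperoxidase and the serine proteases neutrophil elastase, proteinase 3 and cathepsin G. The specific and gelatinase granules, with lactoferrin, lipocalin 2 and matrix metalloproteinases, follow when the cells stop making azurophil proteins.

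The study asked how age and stroke alter the formation of neutrophils in the mouse. The libraries used here were from wild-type mice and are called aged marrow after stroke, young marrow after stroke, aged marrow at steady state and young marrow at steady state. The stroke mice had their middle cerebral artery occluded 24 h earlier, and the steady-state mice were untreated. All 4 marrow samples were enriched for Gr1+ and c-kit+ cells, so a share of cells is a share of a sorted mixture and not of the whole marrow. The other 2 libraries were CD11b+ blood cells, sorted with and without Ly6G, of aged and of young untreated mice. How old the mice were, and how many were pooled, is not in the labels, and each group was 1 library.

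The rule took 300 of 2655 cells (11.3%) in aged marrow after stroke, 169 of 2265 cells (7.46%) in young marrow after stroke, 1419 of 6389 cells (22.2%) in aged marrow at steady state and 1973 of 8213 cells (24.0%) in young marrow at steady state. The exact binomial 95% intervals, which cover counting error only, ran from 10.1 to 12.6%, from 6.41 to 8.62%, from 21.2 to 23.2% and from 23.1 to 25% in the same order. Both stroke libraries thus held a lower share than both steady-state libraries, and with 1 library per group this was not tested. In blood the rule took 0 of 5342 cells from aged mice, which allows a share of up to 0.0562%, and 0 of 2029 cells from young mice, which allows up to 0.148%. These limits are 3 divided by the number of cells, an approximation and not an exact interval. Of the marrow cells, 438, 303, 1851 and 2707 reached the Mpo minimum in the order given above, and 329, 178, 1544 and 2181 of these also had Elane above the monocyte genes.

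Between 10 and 15 CP10k of Mpo, just inside, lay 27, 21, 53 and 70 members in the order aged stroke, young stroke, aged steady state and young steady state. Between 5 and 10 CP10k, just outside, lay 30, 20, 121 and 128 cells. Elane exceeded the monocyte genes by less than 2 CP10k in 25, 7, 102 and 94 members, and fell short by less than 2 CP10k in 79, 87, 135 and 213 cells, which after stroke were most of the cells that the Elane step left out. On the granule limit, 0, 1, 11 and 9 members had 80 to 100 CP10k, and 1, 0, 5 and 7 cells had 100 to 120 CP10k. The median member had 34.4, 35.1, 66.1 and 70.9 CP10k of Mpo, and 26.2, 28.5, 65.4 and 70.5 CP10k of Elane. The members of both stroke libraries were thus lower in both genes that chose them.

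Depth differed between the libraries and needs to be known before any comparison across stroke. The median member had 32193 UMIs in aged marrow after stroke (range 501 to 81302), 1462 UMIs in young marrow after stroke (516 to 78220), 15737 UMIs in aged marrow at steady state (862 to 36206) and 11917 UMIs in young marrow at steady state (599 to 32079). The stroke members fell into a deep and a shallow group: 110 of 300 and 117 of 169 had under 5000 UMIs, against 15 of 1419 and 50 of 1973 at steady state. The shallow members had medians of 1568.5 and 1028 UMIs after stroke, and the deep ones 48688 and 58228.5 UMIs. A barcode 1 base away from another barcode with at least 5 times its UMIs in the same library was found for 38 and 20 stroke members and for 0 members in both steady-state libraries. Of the stroke members, 32 and 50 were called on 3 or fewer Mpo UMIs, against 1 and 1 at steady state. Members with 5000 or more UMIs held 97.8, 94.9, 99.7 and 99.2% of all member UMIs in the order given above, so sums over members rest on the deep cells. Members of the 2 steady-state libraries shared 2 barcodes, and members of aged marrow after stroke and young marrow at steady state shared 1.

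**Figure D1:**
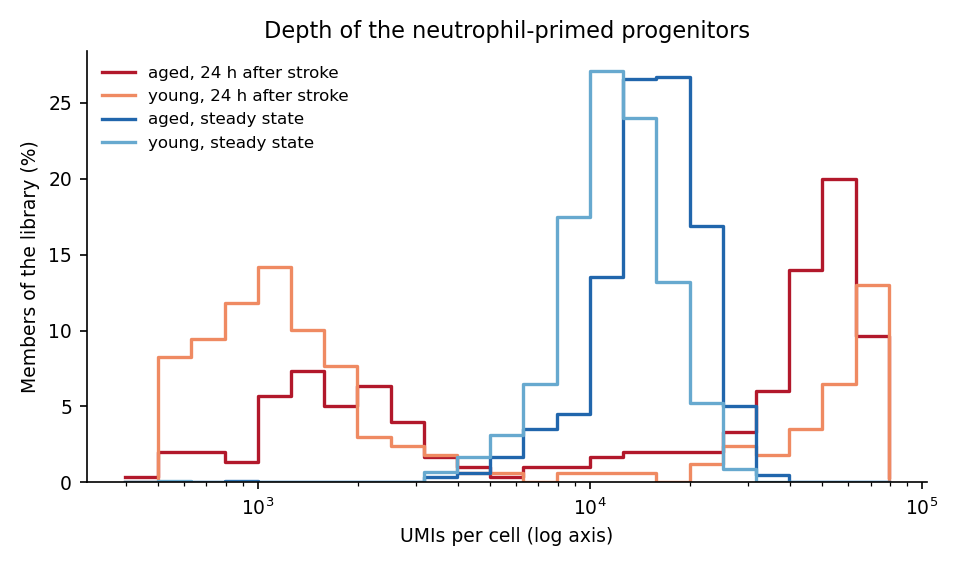
Depth of the members in each marrow library. The x axis is UMIs per member on a log scale, the y axis the percent of that library's members in each bin of 0.1 log10 units, and each line is 1 library; the members after stroke form a shallow and a deep group, while those at steady state form 1 main group around their medians of 15737 and 11917 UMIs.

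The cells carried the granule genes for which they are named. Levels below are CPM, the UMIs of a gene as parts per total UMIs summed over the members of a library and scaled by edgeR's trimmed mean of M values (TMM), unless said otherwise, and the libraries are in the order aged stroke, young stroke, aged steady state and young steady state. Elane, which encodes neutrophil elastase, stood at 5284, 5546, 7471 and 7859 CPM. Mpo, which encodes myeloperoxidase, stood at 4152, 4617, 5799 and 6033 CPM. Both were lower in the 2 stroke libraries than in the 2 steady-state libraries, in the direction of the cells' own thresholds described above.

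Of the marker genes that the rule did not use, Prtn3, which encodes proteinase 3, stood at 8345, 9529, 5765 and 5522 CPM. On plain totals, with no TMM factor, it stood at 7256, 8273, 6635 and 6327 CPM in the members, against 923, 805, 858 and 823 CPM in all other marrow cells of the same libraries. Ctsg, which encodes cathepsin G, stood at 6305, 5815, 4622 and 4511 CPM, and on plain totals at 5482, 5049, 5320 and 5168 CPM, against 403, 271, 470 and 528 CPM in the other cells. Ms4a3, a membrane protein gene used to trace granulocyte-monocyte progenitors and their offspring, stood at 1791, 1721, 1158 and 1131 CPM, and on plain totals at 1558, 1494, 1333 and 1295 CPM, against 182, 108, 142 and 156 CPM in the other cells. All 3 were higher in the members than in the rest in every library. That is a description, since the rule selects cells rich in granule transcripts. After thinning every cell to 1500 UMIs, 96.4, 97.6, 95.9 and 96.3% of the members had a Prtn3 UMI. In B cells, which should lack the gene, the thinned share was 13.2, 5.41, 8.33 and 15.6% (38, 74, 36 and 32 cells with full median depths of 3847.5, 4158, 4836 and 4165.5 UMIs).

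The promoters of these 5 genes are shown because they are the genes that name the cells. Each window runs from 250 bases before to 50 bases after the RefSeq start (mouse build GRCm38.p6), 5′ to 3′ on the gene's own strand. Elane lies at chr10:79886062-79886361 (+), Prtn3 at chr10:79879417-79879716 (+), Mpo at chr11:87793534-87793833 (+), Ctsg at chr14:56102525-56102824 (-) and Ms4a3 at chr19:11640802-11641101 (-). Capitals mark letters of the motifs searched on both strands: GAGGAA, the core bound by PU.1, TTGCNNAA, a form of the C/EBP site, and TGTGGT, the RUNX core, which reads ACCACA on the other strand.
Elane: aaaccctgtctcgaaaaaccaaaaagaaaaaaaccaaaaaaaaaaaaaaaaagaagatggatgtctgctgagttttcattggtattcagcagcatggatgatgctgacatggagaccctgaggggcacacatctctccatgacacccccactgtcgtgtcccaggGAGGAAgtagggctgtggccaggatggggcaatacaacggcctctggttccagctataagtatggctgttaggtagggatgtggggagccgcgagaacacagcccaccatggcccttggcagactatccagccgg
Prtn3: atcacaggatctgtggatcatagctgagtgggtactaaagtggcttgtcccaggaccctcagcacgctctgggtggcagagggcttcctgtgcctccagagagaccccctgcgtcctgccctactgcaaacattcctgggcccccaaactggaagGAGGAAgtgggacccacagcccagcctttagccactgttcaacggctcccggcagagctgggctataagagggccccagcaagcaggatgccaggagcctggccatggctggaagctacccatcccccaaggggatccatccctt
Mpo: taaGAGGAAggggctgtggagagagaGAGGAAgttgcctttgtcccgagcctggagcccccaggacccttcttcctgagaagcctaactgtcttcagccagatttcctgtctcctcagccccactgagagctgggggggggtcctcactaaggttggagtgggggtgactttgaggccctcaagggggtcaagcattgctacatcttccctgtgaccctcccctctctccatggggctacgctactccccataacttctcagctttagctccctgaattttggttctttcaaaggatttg
Ctsg: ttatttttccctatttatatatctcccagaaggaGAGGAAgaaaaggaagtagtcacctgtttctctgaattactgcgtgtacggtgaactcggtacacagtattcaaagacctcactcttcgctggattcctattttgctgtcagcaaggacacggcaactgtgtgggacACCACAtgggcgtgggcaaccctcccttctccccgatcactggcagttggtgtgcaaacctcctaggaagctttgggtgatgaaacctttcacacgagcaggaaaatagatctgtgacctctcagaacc
Ms4a3: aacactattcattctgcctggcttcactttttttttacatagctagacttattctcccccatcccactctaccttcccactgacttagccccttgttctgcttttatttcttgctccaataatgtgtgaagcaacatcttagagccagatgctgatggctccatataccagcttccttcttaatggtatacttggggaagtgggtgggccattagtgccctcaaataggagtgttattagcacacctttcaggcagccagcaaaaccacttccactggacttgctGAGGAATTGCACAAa
GAGGAA was found in all 5 windows, and in 28.28% of 32851 RefSeq promoter windows of the same length. It began 85 bases before the Elane start, 95 before Prtn3, 247 and 224 before Mpo, 216 before Ctsg and 36 bases after the Ms4a3 start. TTGCNNAA was found in Ms4a3 alone of the 5 (42 bases after the start, adjoining GAGGAA) and in 10.8% of all windows. TGTGGT was found in Ctsg alone of the 5 (79 bases before the start, minus strand) and in 16.76% of all windows. Prtn3 and Elane are neighbours on chromosome 10, with RefSeq starts 6645 bases apart. A match is a string of letters and was not tested as a binding site.

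**Figure D2:**
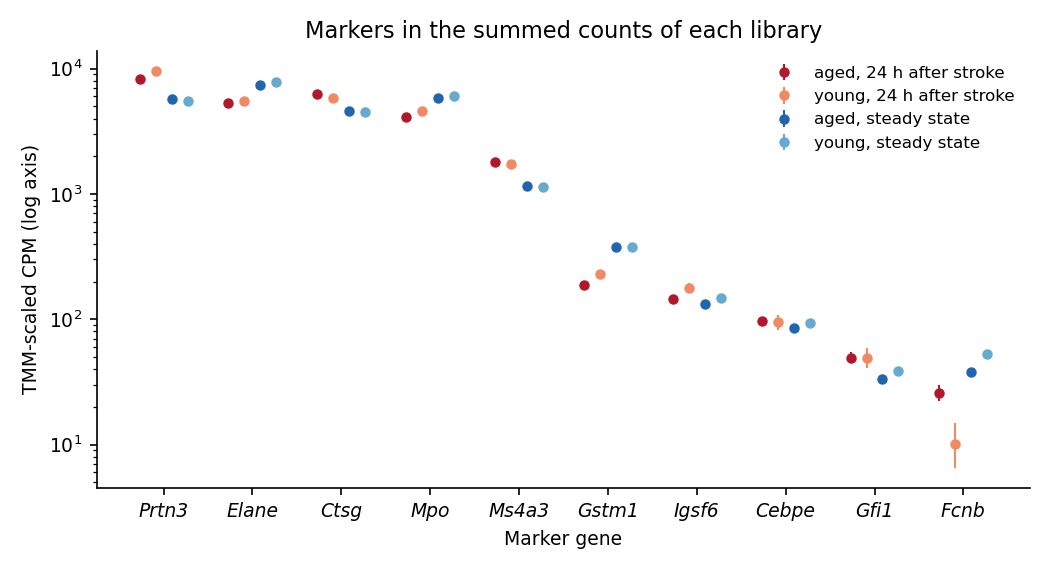
Levels of the 10 marker genes in the members. The x axis lists the genes, the y axis is TMM-scaled CPM on a log scale, each point is 1 library and each bar its exact 95% interval, which covers counting error only; on this scale Prtn3, Ctsg and Ms4a3 are higher in the 2 stroke libraries and Elane, Mpo and Gstm1 are lower in them, while on plain totals the Ctsg levels of the libraries overlap.

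The other markers set the cells between early progenitors and cells that fill specific granules. Gfi1, which encodes a repressor needed for granulocyte formation, stood at 49.3, 49.4, 33.5 and 38.4 CPM. Cebpe, which encodes C/EBPε, the factor needed for the later granules, stood at 96.5, 94.4, 85.0 and 92.6 CPM. Gstm1, a glutathione transferase gene, stood at 188, 229, 378 and 379 CPM. Fcnb, which encodes ficolin B, stood at 25.9, 10.0, 37.9 and 52.9 CPM. All 10 markers were detected in every library, and their summed level on plain totals was 22939, 24126, 29327 and 29522 CPM in the members against 2468, 2033, 3421 and 3782 CPM in the other marrow cells.

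Markers of other cell types, given in this and the next paragraph as sums of plain CPM, were lower in the members than in the rest for most lists. The 10 markers of dividing pre-neutrophils, the stage that fills specific granules, summed to 1187, 943, 1773 and 1793 CPM in the members against 36417, 28221, 35128 and 37830 CPM in the other cells. The 10 markers of immature and mature neutrophils summed to 384, 324, 908 and 892 CPM against 4726, 5110, 3021 and 2680 CPM. The 12 stem and multipotent markers summed to 290, 245, 648 and 662 CPM against 381, 343, 851 and 830 CPM. The 12 monocyte markers summed to 1115, 1611, 2793 and 3303 CPM against 2407, 4019, 3390 and 3546 CPM. Erythroid markers summed to 35.9, 32.4, 134 and 156 CPM against 668, 850, 1317 and 1336 CPM. On the TMM scale Cd79a, a defining B cell gene, stood at 1.03, 0.803, 0.379 and 0.461 CPM, Cd3e of T cells at 0.129, 0.402, 0.228 and 0.177 CPM, and Tubb1 of megakaryocytes at 0 in all 4 libraries.

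There were 3 exceptions. That of T and NK cells held at steady state only, and that of eosinophils in all libraries but young marrow after stroke. The T and NK cell list summed to 473, 475, 832 and 832 CPM in the members, most of it the granule gene Nkg7, against 541, 483, 315 and 277 CPM in the other cells. The eosinophil list summed to 132, 7.32, 185 and 301 CPM against 91.7, 50.2, 99.1 and 89.4 CPM. The basophil and mast cell list of 10 genes summed to 1426, 1253, 1028 and 716 CPM in the members, against 1372, 376, 864 and 712 CPM in the other cells. Its sums in the members were thus above those of the rest in all 4 libraries. These UMIs sat in few cells: 12, 2, 36 and 38 members had 20 CP10k or more of Prss34 and Mcpt8, a pair of basophil protease genes, and they held 96.7, 97.5, 91.1 and 89.3% of the pair's UMIs in their libraries. Eosinophil granule transcripts (Epx and Prg2) passed the same limit in 2, 0, 7 and 13 members. The rule on Mpo and Elane therefore also took some cells that carried basophil or eosinophil transcripts, and results that rest on them are named as such below.

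The members differed from each other along a gradient of Cd34, a surface glycoprotein of early progenitors. Among members with 5000 or more UMIs, levels are given here as plain CPM in 4 bins of Cd34 (none, up to 2, 2 to 5, and 5 or more CP10k), from 295, 521, 456 and 132 cells of aged marrow at steady state. Prtn3 stood at 10355, 6980, 5095 and 2997 CPM with rising Cd34, and Ms4a3 at 2311, 1433, 905 and 399 CPM. Cebpe stood at 214, 92.0, 60.7 and 20 CPM, and Srgn, the proteoglycan that packs granule proteases, at 4088, 2346, 1701 and 1330 CPM. Prtn3, Ms4a3, Cebpe and Srgn were all highest where Cd34 was not detected. Basophil transcripts moved with them: Prss34 stood at 1464, 151, 118 and 61.7 CPM in the same bins, and their part in the gradient was not tested. In the opposite direction, Sox4, a progenitor transcription factor gene, stood at 50.5, 105, 181 and 323 CPM, Adgrg1, an adhesion receptor gene of early progenitors, at 30.7, 48.6, 123 and 297 CPM, and Flt3, a receptor gene of multipotent and lymphoid-primed progenitors, at 5.55, 10.5, 31.5 and 83.3 CPM. Kit, the stem cell factor receptor gene, stood at 66.6, 76.9, 104 and 132 CPM.

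Young marrow at steady state showed the same order in 517, 643, 588 and 175 cells: Prtn3 stood at 9677, 6209, 4843 and 3449 CPM, and Sox4 at 65.8, 129, 225 and 356 CPM. Prss34 stood there at 768, 100.3, 43.4 and 13.3 CPM. After stroke the high end of the gradient was thinly filled. In aged marrow after stroke 44, 121, 24 and 1 members fell into the 4 bins, and in young marrow after stroke 12, 34, 5 and 1. In the 3 bins of aged marrow after stroke with more than 20 cells, Prtn3 stood at 11158, 6686 and 2889 CPM, Ms4a3 at 2058, 1521 and 714 CPM, and Sox4 at 12.1, 47.8 and 141 CPM. The gradient is a description over cells of 1 library each, and in sparse counts a Cd34 of 0 also holds cells in which it was missed.

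**Figure D3:**
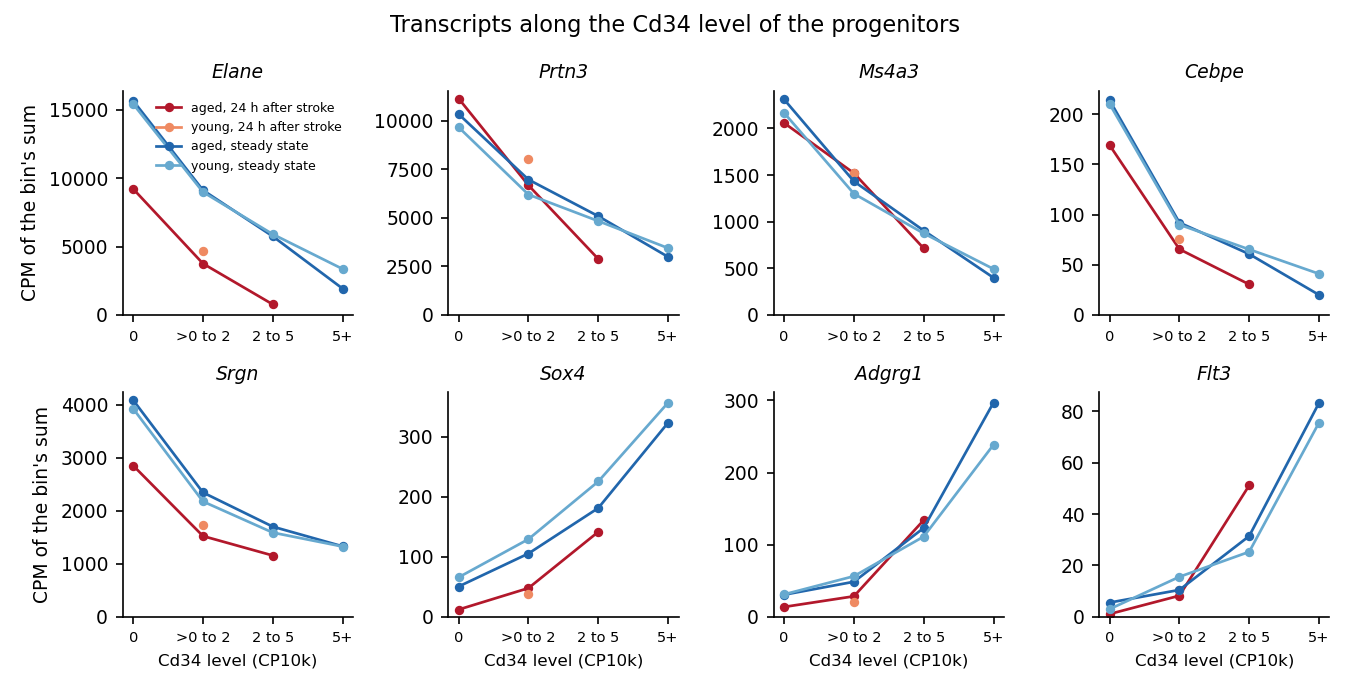
Gradient of 8 genes over Cd34 in members with 5000 or more UMIs. The x axis is the Cd34 bin, the y axis plain CPM on a linear scale from 0 and each line 1 library, with bins of under 20 cells not drawn, which leaves 1 point for young marrow after stroke; Elane, Prtn3, Ms4a3, Cebpe and Srgn are highest where Cd34 was not detected, and Sox4, Adgrg1 and Flt3 where it was highest.

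Between-cell spread was widest for a few genes. At 5000 UMIs per cell, and ranked by the lowest ratio of variance to mean over the 4 libraries, the leading genes were Prss34, Mcpt8, S100a8, Elane, Gm42418, Cpa3 and Prtn3 of 6055 genes, whose median lowest ratio was 0.941. Prss34, Mcpt8 and Cpa3 are the basophil and mast cell genes described above. S100a8, a calcium-binding alarmin gene of neutrophils, was found after thinning in 52.2, 38.6, 76.9 and 81.1% of the members, but in 65.8, 71.6, 88.9 and 100% of the B cells. The share of cells with a UMI therefore cannot separate its expression from background. Its plain level moved with Fcnb: it was 32269 CPM in the 7 members at 2 CP10k of Fcnb or more against 946 CPM in those with none in aged marrow after stroke, and 19820 against 1910 CPM in aged and 13689 against 2076 CPM in young marrow at steady state. Elane itself ranged in the middle 80% of deep members from 2.36 to 125 CP10k in aged marrow after stroke, from 2.21 to 89.9 in young marrow after stroke, from 4.59 to 203 in aged marrow at steady state and from 8.50 to 204 in young marrow at steady state.

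Transcripts of DNA replication and mitosis were present in the members of all 4 libraries. The 30 DNA replication genes took a median of 0.317, 0.315, 0.385 and 0.368% of the UMIs of a deep member, with a range of the middle 80% of 0.177 to 0.425, 0.129 to 0.425, 0.188 to 0.559 and 0.175 to 0.556%. The 30 mitosis genes took a median of 0.304, 0.346, 0.266 and 0.253%, with 0.148 to 0.530, 0.120 to 0.532, 0.0944 to 0.695 and 0.0798 to 0.722%. The ranges of the 4 libraries overlapped for both lists.

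Set against the monocyte side of the same gate (98, 112, 302 and 513 cells that reached the Mpo minimum with Elane at or below the monocyte genes), the members differed in a set of regulators. Plain CPM is used for these comparisons, and the gate itself separates the cells, so no test was made. The name states the gate only, since that side held a mixture. Monocyte markers summed there to 1379, 1203, 3948 and 4185 CPM, and basophil and mast cell markers to 11109, 385, 4467 and 2473 CPM. In young marrow after stroke that monocyte sum was below the 1611 CPM of the members. Cebpe stood at 83.9, 82.0, 97.8 and 106 CPM in the members against 14.0, 5.71, 6.81 and 6.33 CPM on the monocyte side. Gfi1 stood at 42.9, 42.9, 38.6 and 44.0 CPM against 12, 9.52, 8.51 and 9.12 CPM, and Gstm1 at 163, 199, 435 and 434 CPM against 37.1, 45.7, 95.3 and 75.8 CPM. Flt3 stood at 10.6, 13.3, 22.5 and 21.1 CPM in the members against 42.1, 66.6, 106 and 117 CPM, and Bcl2, the survival gene, at 28.2, 23.7, 120 and 123 CPM against 65.1, 107, 269 and 343 CPM. The 2 neutrophil regulators were higher and Flt3 and Bcl2 lower in the members in all 4 libraries.

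Set against cells that had already passed the granule limit (29, 9, 125 and 208 cells), the members were at the early end. Lcn2, which encodes lipocalin 2 of the specific granules, stood at 356, 263, 183 and 167 CPM in the members against 5071, 4758, 3456 and 3518 CPM, and Fcnb at 22.5, 8.72, 43.6 and 60.6 CPM against 589, 753, 1056 and 869 CPM. Cd34 stood at 80.9, 69.1, 201 and 199 CPM against 13.8, 0, 75.7 and 97.5 CPM. Against all other marrow cells, Fkbp11, a folding enzyme gene of the secretory pathway, stood at 203, 183, 95.8 and 83.4 CPM in the members against 12.3, 6.84, 12.5 and 9.79 CPM, and Nkg7, a granule membrane gene, at 456, 465, 789 and 813 CPM against 117, 93.5, 183 and 179 CPM.

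Age was compared first. Aged members differed from young members in 3 of 14026 genes tested (0.0214%), all 3 higher in aged members, and in 0 lower (0.00%). The age difference was fitted over the 4 member sums with stroke as a second term, by edgeR's quasi-likelihood test with Benjamini-Hochberg adjustment at 0.05. At an unadjusted p below 0.05 there were 274 genes higher and 218 lower in aged members, and DESeq2 called 0 genes, with 93 at an unadjusted p below 0.05. Other settings called genes lower in aged members as well: 17 of 54 calls without a count filter, 11 of 34 with the gate set after thinning and 5 of 19 in members with 5000 or more UMIs. With 1 library per group, the spread in this test is how far the age difference after stroke departs from the age difference at steady state, not the spread between mice. Of 5481 genes at 20 CPM or more, 0 differed by over 2-fold the same way in both age pairs. The median absolute log2 difference was 0.142 after stroke and 0.0790 at steady state.

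The 3 genes past the threshold rested on few cells or on transcripts that other cells also carried. Fcer1a, which encodes the IgE receptor alpha chain of mast cells and basophils, stood at 37.5 CPM in aged and 18.9 CPM in young marrow after stroke, and at 29.5 CPM in aged and 12.9 CPM in young marrow at steady state. Both aged libraries were above their young partners (log2 1.13, SE 0.143, edgeR adjusted p = 0.00786). The basophil-rich members held 96.2, 97.9, 87.0 and 87.4% of its UMIs in the order aged stroke, young stroke, aged steady state and young steady state. Without the basophil- and eosinophil-rich cells its difference was 1.67 with an edgeR adjusted p of 0.300, and over 14 alternatives the adjusted p ran from 6.94e-10 to 1.

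Ccl5, a chemokine gene of T and NK cells, stood at 14.3 CPM in aged and 9.24 CPM in young marrow after stroke, and at 28.1 CPM in aged and 10.5 CPM in young marrow at steady state (log2 1.25, SE 0.187, edgeR adjusted p = 0.0367). The 10 members with the most UMIs held 90.1, 73.9, 52.0 and 78.4% of its UMIs. After thinning to 5000 UMIs, which leaves out members with fewer, 3.16, 1.92, 3.63 and 2.03% of the members had a Ccl5 UMI. Of the B cells at full depth (median depths as above) 13.2, 2.6, 8.33 and 3.13% had one, in 5, 2, 3 and 1 cells. Of all members at full depth 7, 9.47, 8.6 and 3.19% had one, below the B cells only in aged marrow after stroke. Depth differs between these groups, so the shares do not set Ccl5 apart from background. It lost the call with DESeq2's size factors (adjusted p 0.0789), with DESeq2's test (adjusted p 1), and without the cells near a deeper barcode (edgeR adjusted p 0.330).

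Ly6k, which encodes a GPI-anchored Ly6 family protein, was found in 2 of 300, 0 of 169, 144 of 1419 and 33 of 1973 members. Its level was 1.03 CPM in aged and 0 CPM in young marrow after stroke, and 14.9 CPM in aged and 2.27 CPM in young marrow at steady state (log2 2.73, SE 0.282, edgeR adjusted p = 0.00112). The fitted fold is no bound, since 1 library is at 0. After thinning to 5000 UMIs, 5.48% of the aged and 0.936% of the young steady-state members had a UMI. Of the B cells of the same libraries at full depth, 2 of 36 (5.56%) in aged and 0 of 32 in young steady-state marrow had one. The other marrow cells stood at 14.0 CPM in aged and 4.28 CPM in young steady-state libraries (plain totals), so a difference of the same direction stood in the other cells. The positive members had a median of 2 and at most 13 UMIs of Ly6k in aged steady-state marrow, and a median of 1 and at most 15 in young. How much of its level is free RNA was not tested.

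Of the 24 genes with the largest age differences in both pairs at 20 CPM or more, 1 passed the test, Fcer1a. Mrgpra2b, a G protein-coupled receptor gene, stood at 37.7 and 11.6 CPM after stroke and at 27.0 and 15.5 CPM at steady state, aged before young (log2 1.05, edgeR adjusted p = 0.077), but shares 87.3% of its 3′ sequence with other genes, as defined below. Atp5g2, an ATP synthase subunit gene that shares 53.8%, stood at 117 and 47.8 CPM after stroke and at 4.93 and 3.47 CPM at steady state, aged before young (log2 0.96), and did not pass. Of those that share none, Cenpv, a centromere protein gene, stood at 91.7 CPM in aged and 49.0 CPM in young marrow after stroke, and at 66.3 CPM in aged and 47.8 CPM in young marrow at steady state (log2 0.64, edgeR adjusted p = 0.130). Clec4e, a pattern recognition receptor gene, stood at 36.6 and 20.9 CPM after stroke and at 17.8 and 13.3 CPM at steady state, aged before young (log2 0.55, edgeR adjusted p = 0.634). Jun, an immediate early gene, stood at 29.1 CPM in aged and 49.0 CPM in young marrow after stroke, and at 23.5 CPM in aged and 39.1 CPM in young marrow at steady state (log2 -0.74, edgeR adjusted p = 0.077). Both aged member sums of Jun lay below both young sums. Jun was chosen for large ratios of the same sign in both pairs, so this order adds no support.

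Irf8, Klf4 and Ly6c2, named by the same rule, were lower in aged members in both pairs and did not pass the test. Irf8, which favours the monocyte side, stood at 85.7 CPM in aged and 165 CPM in young marrow after stroke, and at 293 CPM in aged and 385 CPM in young marrow at steady state (log2 -0.64, SE 0.126, edgeR adjusted p = 0.130). Klf4, which favours monocyte fate, stood at 26.1 and 43.0 CPM after stroke and at 25.8 and 36.9 CPM at steady state, aged before young (log2 -0.59, edgeR adjusted p = 0.273). Ly6c2, a surface protein gene of monocyte and granulocyte precursors, stood at 528 and 800 CPM after stroke and at 1034 and 1352 CPM at steady state, aged before young (log2 -0.49, edgeR adjusted p = 0.130). Ly6c2 shares 57.7% of its 3′ sequence. Irf8 was detected, after thinning to 1500 UMIs, in 12, 15.7, 27.6 and 35.1% of the members and in 23.7, 28.4, 16.7 and 34.4% of the B cells, which express it themselves.

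**Figure D4:**
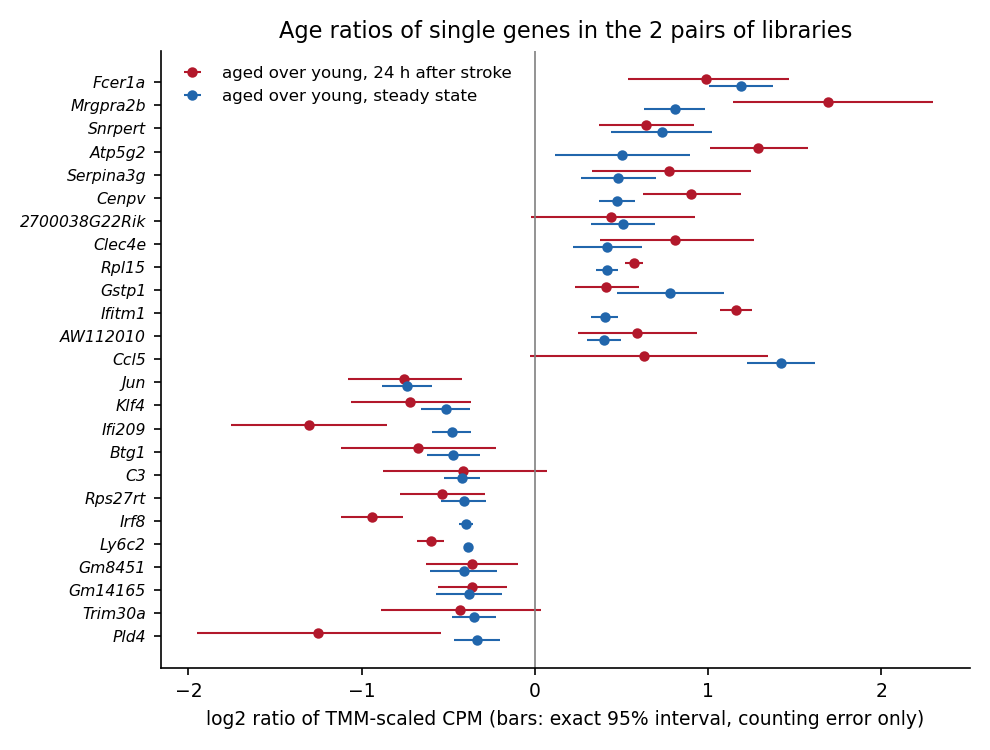
Age differences of 25 named genes in the members. The x axis is the log2 ratio of aged over young, the y axis lists the genes, red points are the pair after stroke, blue points the pair at steady state, and bars are exact 95% intervals, which cover counting error only. For each gene both points lie on the same side of 0, which the choice of the genes required for all but Ccl5. Of these genes only Fcer1a and Ccl5 passed the adjusted threshold.

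Of the gene lists examined, 0 members of any list passed the age test in either direction, against 0.0214% of all genes tested. The 22 ribosome biogenesis genes all had a fitted difference above 0 (median log2 0.13, range over alternatives 0.07 to 0.14), while the median over all genes tested was 0.0002. The 33 interferon-stimulated genes had 6 above 0 (median log2 -0.31), the 20 immediate early genes 3 above 0 (median log2 -0.33) and the 7 monocyte and dendritic regulators 3 above 0 (median log2 -0.37). The 17 azurophil genes not used by the rule had 7 above 0 (median log2 -0.04). Among them Prtn3 differed by log2 -0.06 and Ctsg by log2 0.08 between aged and young members. Tests on simulated counts with these depths called 100% of 100 genes changed by 2-fold in the age comparison. Those genes were at 20 CPM or more and were changed alike in both age pairs. The simulation therefore does not show what the test finds for rarer genes or where the 2 pairs differ.

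Stroke was compared next, and here the library and its depth cannot be told apart from the occlusion. Both stroke libraries differ from both steady-state libraries in how depth spreads over the members, as given above. The sources used here do not say whether their counting differed too, so its part cannot be told apart either. Members after stroke differed from members at steady state in 6029 of 14026 genes (43.0%), 3241 higher (23.1%) and 2788 lower (19.9%), by the same edgeR test. The lower genes include Mpo, Elane, F13a1, Ngp and Ltf, which the rule used. All of these calls rest on TMM scaling, which assumes that most genes do not differ. The median log2 difference of all genes was -0.04 with it and -0.45 on plain library totals. On plain totals 7684 genes passed (54.8%), 1629 higher (11.6%) and 6055 lower (43.2%), an alternative added after the data were seen, and 4417 of these genes were also called with TMM. The differences below are on TMM scaling. A rise or fall that was not called the same way on plain totals is named where it stands, and each list's counts on plain totals follow its others. By DESeq2 2942 genes were called, 2002 higher and 940 lower. Of the genes at 20 CPM or more, 419 were over 2-fold higher and 78 over 2-fold lower in both stroke pairs.

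A measured property of the genes moved with this difference. For each gene, the share of 31-base words in the last 400 bases of its transcripts that also occur in another gene was taken as its shared 3′ sequence. Genes sharing under 5% (10602 genes) showed a median log2 difference of -0.14, 1771 of them higher (16.7%) and 2401 lower (22.6%). Genes sharing 75% or more (529 genes) showed a median of 1.65, 365 of them (69.0%) higher and 23 lower. Of the 12 genes most increased in both pairs, 10 share 5% or more, among them Gm10736, at 2790, 2226, 59.1 and 34.3 CPM, and Gstp1, a glutathione transferase gene, at 163, 123, 8.72 and 5.07 CPM. The part of read assignment in these differences was not tested. Counts of each list below are therefore given for all its genes and then for genes sharing under 5%. They stand beside the shares over all genes, 23.1% higher and 19.9% lower. Those shares were 16.7 and 22.6% among genes sharing under 5%, and 11.6 and 43.2% on plain totals. A count near these shares says nothing particular about a list.

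**Figure D5:**
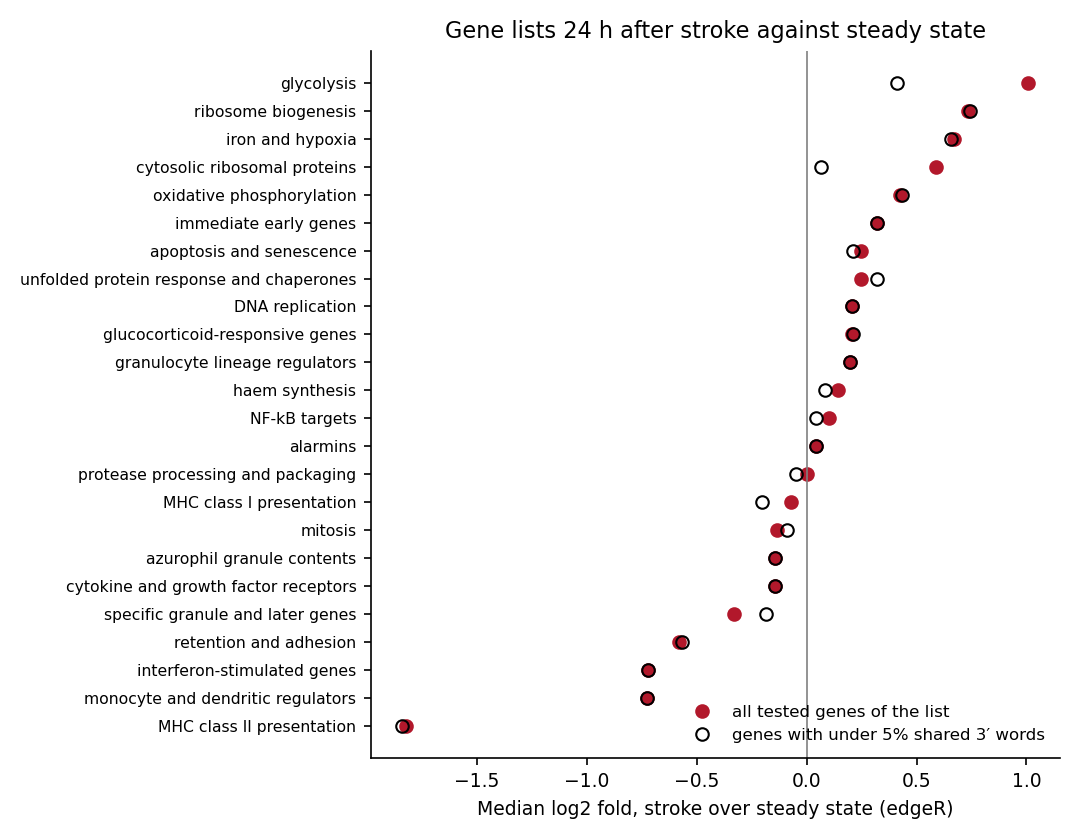
Stroke differences of 24 gene lists in the members. The x axis is the median log2 ratio of stroke over steady state on TMM scaling, the y axis lists the gene lists, filled points are all genes tested that the rule did not use and open points the genes sharing under 5% of their 3′ sequence; ribosome biogenesis and glycolysis lie to the right, and MHC class II, interferon-stimulated genes, monocyte regulators and adhesion genes to the left.

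The azurophil granule genes moved in both directions after stroke, as did the genes tested as a whole. Of 17 not used by the rule, 5 rose and 6 fell (median log2 -0.14), and of the 15 that share under 5%, 4 rose and 5 fell. On plain totals 3 were higher and 11 lower. Prtn3 rose (log2 0.66, SE 0.083, edgeR adjusted p = 1.46e-05), and its levels given above do not overlap between stroke and steady state on either scale. Ctsg rose on TMM scaling (log2 0.41, SE 0.078, edgeR adjusted p = 0.000712) but not on plain totals (log2 0.00, edgeR adjusted p = 0.965), where its levels overlap. Ctsc, which encodes the dipeptidyl peptidase that activates these proteases, stood at 127, 161, 68.4 and 63.3 CPM and rose (log2 1.11, SE 0.124, edgeR adjusted p = 4.66e-06). Nkg7 stood at 525, 536, 685 and 710 CPM and fell (log2 -0.39, edgeR adjusted p = 0.00375). Plac8 at 4282, 4712, 4488 and 4722 CPM (log2 -0.04) and Srgn at 2019, 2071, 2056 and 2031 CPM (log2 0.00) did not pass, but were lower on plain totals (log2 -0.44 and -0.40). The markers Ms4a3 (log2 0.62, edgeR adjusted p = 4.7e-05) rose on both scales, and Gfi1 (log2 0.47, edgeR adjusted p = 0.0062) on TMM scaling but not on plain totals (log2 0.07, edgeR adjusted p = 0.646). Gstm1, which shares 30.7% of its 3′ sequence, fell (log2 -0.87, edgeR adjusted p = 1.4e-05). Cebpe did not pass (log2 0.11, edgeR adjusted p = 0.44), and was lower on plain totals (log2 -0.29, edgeR adjusted p = 0.0379).

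The 19 genes of protease processing and packaging had 4 higher and 4 lower, and the 13 sharing under 5% had 1 higher and 4 lower. On plain totals 3 were higher and 9 lower. Cst3, which encodes the protease inhibitor cystatin C, stood at 526, 618, 737 and 745 CPM and fell (log2 -0.38, edgeR adjusted p = 0.00613). Serpinb1a, which encodes an inhibitor of elastase, proteinase 3 and cathepsin G, stood at 650, 578, 476 and 513 CPM and rose (log2 0.31, edgeR adjusted p = 0.0225), but not on plain totals (log2 -0.09, edgeR adjusted p = 0.474). Cd63, a granule membrane gene that shares 50.6%, stood at 432, 348, 344 and 338 CPM and did not pass. Haem synthesis, which supplies myeloperoxidase with its cofactor, had 3 of 10 higher and 0 lower, and 2 and 0 of the 9 sharing under 5%. On plain totals 1 was higher and 3 lower. Its rate-limiting gene Alas1 stood at 309, 273, 233 and 326 CPM and did not pass (log2 0.08).

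Among the granulocyte lineage regulators 5 of 15 rose and 5 fell, all 15 sharing under 5%. On plain totals 2 were higher and 7 lower. Cebpb, which encodes the factor of emergency granulopoiesis, stood at 258, 286, 114 and 128 CPM (log2 1.17, SE 0.104, edgeR adjusted p = 3.94e-07), and rose on both scales. Both stroke libraries were above both steady-state libraries. Spi1, which encodes PU.1, stood at 256, 284, 193 and 178 CPM and rose (log2 0.53, edgeR adjusted p = 0.00107), but not on plain totals (log2 0.13, edgeR adjusted p = 0.319). Cebpa, which encodes C/EBPα, stood at 101, 79.9, 52.0 and 55.3 CPM and rose on both scales (log2 0.77). Myb, a gene of proliferating progenitors, stood at 251, 237, 325 and 381 CPM and fell (log2 -0.52, edgeR adjusted p = 0.00137). Sox4 stood at 56.9, 52.2, 120 and 145 CPM and fell (log2 -1.25, SE 0.125, edgeR adjusted p = 1.44e-06).

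The monocyte and dendritic regulators had 0 of 7 higher and 3 lower, all 7 sharing under 5%, and 0 higher and 4 lower on plain totals. Irf8, with the levels given above, fell (log2 -1.51, SE 0.129, edgeR adjusted p = 2.53e-07), and Zeb2, a repressor gene of monocytes and dendritic cells, stood at 31.3, 48.2, 119 and 144 CPM and fell (log2 -1.77, SE 0.127, edgeR adjusted p = 3.79e-08). Klf4 did not pass (log2 0.11). The summed monocyte markers in the members, given above on plain totals, were lower after stroke as well, and their part in these differences was not tested.

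Cytokine receptors had 0 of 20 higher and 8 lower (6 of 16 sharing under 5%), and 0 higher and 13 lower on plain totals. Kit stood at 59.1, 47.4, 77.0 and 79.95 CPM and fell (log2 -0.54, SE 0.124, edgeR adjusted p = 0.00266). Csf1r, the M-CSF receptor gene, stood at 15.4, 19.7, 43.4 and 43.6 CPM and fell (log2 -1.36, edgeR adjusted p = 3.83e-06). Ifngr1, the interferon gamma receptor gene, at 251, 263, 229 and 246 CPM, and Csf2ra, the GM-CSF receptor gene, at 61.4, 78.7, 71.8 and 81.9 CPM, did not pass, but were lower on plain totals (log2 -0.29 and -0.55).

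Retention and adhesion genes had 0 of 13 higher and 9 lower (median log2 -0.58, against -0.04 over all genes), and 7 of the 10 sharing under 5% were lower. On plain totals 0 were higher and 10 lower. Cd34 stood at 93.1, 79.5, 175 and 174 CPM and fell (log2 -1.01, SE 0.113, edgeR adjusted p = 4.74e-06). Cd24a, a surface glycoprotein gene, stood at 101, 114, 160 and 151 CPM and fell (log2 -0.54, edgeR adjusted p = 0.00129). Cd93, a C-type lectin receptor gene of early progenitors and among the 12 genes most reduced in both pairs, stood at 28.6, 35.7, 113 and 136 CPM (log2 -1.96, SE 0.122, edgeR adjusted p = 7.92e-09). For each of these 3 genes both stroke libraries lay below both steady-state libraries. Few deep members lay at 2 CP10k of Cd34 or more after stroke, as described above. Those bins are cut on the same Cd34 UMIs, so they add no separate support.

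Genes of the specific granules and later stages moved both ways, as did the genes tested as a whole: 7 of 20 rose and 7 fell. Of the 15 sharing under 5%, 5 rose and 4 fell. On plain totals 6 were higher and 8 lower, and the rises of Hp, Lcn2 and Anxa1 were called on both scales. Hp, which encodes haptoglobin, stood at 778, 730, 328 and 318 CPM and rose (log2 1.22, SE 0.097, edgeR adjusted p = 1.12e-07). Lcn2 stood at 409, 303, 159 and 146 CPM and rose (log2 1.22, SE 0.111, edgeR adjusted p = 5.01e-07), and Anxa1, which encodes annexin A1, stood at 572, 466, 194 and 203 CPM and rose (log2 1.38, SE 0.112, edgeR adjusted p = 1.38e-07). Chil3, a chitinase-like gene, stood at 282, 327, 64.6 and 55.0 CPM and rose (log2 2.34), but shares 21.1% of its 3′ sequence. In the opposite direction Mmp9, which encodes gelatinase B, stood at 5.92, 3.62, 39.4 and 34.2 CPM (log2 -2.86, SE 0.192, edgeR adjusted p = 1.86e-08), and Mmp8, the neutrophil collagenase gene, at 8.88, 6.03, 37.3 and 42.5 CPM (log2 -2.29, edgeR adjusted p = 1.36e-07). Retnlg, a resistin-like gene of mature neutrophils, stood at 64.0, 30.5, 327 and 309 CPM (log2 -2.74). It lost the call under 3 alternatives, with edgeR adjusted p values of 0.0818 to 0.299. The summed markers of mature neutrophils in the members were lower after stroke, as given above, while in the other marrow cells they were higher, and their part in these differences was not tested.

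Ribosome biogenesis genes were mostly higher after stroke. Of its 22 genes 19 rose and 0 fell (median log2 0.73), and of the 14 sharing under 5%, 13 rose. On plain totals 14 of the 22 were higher and 2 lower (median log2 0.33). Npm1, which encodes nucleophosmin, stood at 4422, 4251, 2398 and 2190 CPM (log2 0.92, SE 0.082, edgeR adjusted p = 4.04e-07, 18.3% shared), and Ncl, which encodes nucleolin, at 2463, 1923, 1565 and 1486 CPM (log2 0.51, edgeR adjusted p = 0.000424, 12.3% shared). Nop10 stood at 968, 916, 656 and 642 CPM (log2 0.54) and Nhp2 at 707, 705, 364 and 324 CPM (log2 1.04), both of the box H/ACA particle. On plain totals Npm1 and Nhp2 rose as well (log2 0.52 and 0.64), while Ncl (log2 0.11) and Nop10 (log2 0.13) did not pass. The 30 cytosolic ribosomal protein genes had 24 higher and 2 lower, but 29 of the 30 share 5% or more of their 3′ sequence. On plain totals 15 were higher and 6 lower.

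Of the energy metabolism lists, in oxidative phosphorylation 20 of 30 rose and 1 fell (11 and 1 of the 16 sharing under 5%), with Cox8a of cytochrome oxidase at 1817, 1814, 1291 and 1277 CPM (log2 0.50, edgeR adjusted p = 0.000291). On plain totals 10 were higher and 6 lower (median log2 0.02), and Cox8a did not pass (log2 0.10, edgeR adjusted p = 0.353). In glycolysis 13 of 16 rose and 1 fell, and among the 7 sharing under 5% 4 rose and 1 fell. On plain totals 11 were higher and 2 lower, and Pkm was not called (log2 0.26, edgeR adjusted p = 0.0576). The highest glycolysis genes, Gapdh, Ldha, Aldoa and Pkm, share 22.4 to 49.8%, and Gapdh stood at 3267, 3793, 882 and 636 CPM. Of the genes sharing little, Pfkl, a phosphofructokinase gene, stood at 79.8, 79.5, 40.3 and 33.9 CPM and rose on both scales (log2 1.09, edgeR adjusted p = 2.65e-06). Iron and hypoxia genes had 8 of 12 higher and 0 lower (6 of 9 sharing under 5%), and 3 higher and 2 lower on plain totals. Tfrc, the transferrin receptor gene, stood at 129, 106, 41.6 and 56.4 CPM and rose on both scales (log2 1.29, SE 0.152, edgeR adjusted p = 2.29e-05). Hif1a, which encodes a hypoxia-inducible factor, stood at 42.9, 36.6, 24.1 and 27.5 CPM (log2 0.66, edgeR adjusted p = 0.00167) and did not pass on plain totals (log2 0.25, edgeR adjusted p = 0.139).

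Chaperone and unfolded protein response genes, which serve the secretory pathway, had 12 of 24 higher and 3 lower, all 15 of them among the 22 sharing under 5%. On plain totals 5 were higher and 8 lower. Hspa5, which encodes the chaperone BiP, stood at 1044, 1190, 879 and 735 CPM and rose (log2 0.47, edgeR adjusted p = 0.00265). Ssr4, of the translocon, stood at 1162, 1197, 957 and 990 CPM and rose (log2 0.28, edgeR adjusted p = 0.0212). On plain totals neither passed (log2 0.07 and -0.13). Calr, which encodes calreticulin, stood at 1329, 1405, 2004 and 1751 CPM and fell (log2 -0.46, edgeR adjusted p = 0.00117), and Hsp90b1 at 789, 909, 959 and 907 CPM did not pass, but was lower on plain totals (log2 -0.54).

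Interferon-stimulated genes had 2 of 33 higher and 14 lower (median log2 -0.72), and of the 17 sharing under 5%, 0 were higher and 6 lower. On plain totals 2 were higher and 24 lower. Ly6e stood at 479, 512, 869 and 876 CPM and fell (log2 -0.82, SE 0.095, edgeR adjusted p = 6.86e-06). Ifitm3, an antiviral membrane protein gene that shares 26.2%, stood at 923, 522, 212 and 227 CPM and rose (log2 1.67, edgeR adjusted p = 0.00717). MHC class II genes had 0 of 7 higher and 5 lower (median log2 -1.82), the 5 among the 6 sharing under 5%, and 0 higher and 7 lower on plain totals. Over 13 alternatives that median ran from -2.22 to -0.50, and the part of transcripts from other cells was not tested. H2-DMa stood at 51.7, 62.3, 91.1 and 98.4 CPM (log2 -0.75, edgeR adjusted p = 0.00011), and Cd74, the invariant chain gene, at 10.2, 3.62, 30.3 and 23.1 CPM (log2 -1.82, edgeR adjusted p = 6.25e-06). MHC class I genes had 5 of 16 higher and 3 lower, 2 and 2 of the 9 sharing under 5%, and 2 higher and 9 lower on plain totals. B2m, which encodes the class I light chain, stood at 586, 524, 898 and 917 CPM and fell (log2 -0.71, edgeR adjusted p = 3.44e-05). H2-D1 at 696, 670, 694 and 666 CPM did not pass, but was lower on plain totals (log2 -0.40).

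Immediate early genes, all 20 sharing under 5%, had 9 higher and 1 lower, and 6 higher and 4 lower on plain totals. Ier2 stood at 113, 118, 56.0 and 65.8 CPM (log2 0.93, edgeR adjusted p = 8.93e-06), Junb at 103, 71.5, 24.9 and 26.5 CPM (log2 1.78, SE 0.140, edgeR adjusted p = 1.05e-07) and Jund at 72.1, 86.8, 27.0 and 33.1 CPM (log2 1.40, edgeR adjusted p = 1.36e-07). These 3 genes were higher in both stroke libraries than in both steady-state libraries, and rose on both scales. Dnajb1 at 38.9, 34.9, 36.9 and 40.7 CPM did not pass, but was lower on plain totals (log2 -0.45). Glucocorticoid-responsive genes had 4 of 15 higher and 3 lower (4 and 2 of the 14 sharing under 5%), and 0 higher and 3 lower on plain totals. Their 4 most abundant genes, Cebpd, Nfkbia, Txnip and Fkbp5, did not pass. NF-kB targets had 3 of 19 higher and 4 lower (2 and 4 of 16), and 3 higher and 7 lower on plain totals. Alarmins had 6 of 14 higher and 2 lower (3 and 1 of 8), and 5 of each on plain totals.

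Cell division lists moved in both directions, as did the genes tested as a whole. DNA replication had 11 of 30 higher and 4 lower (7 and 3 of the 20 sharing under 5%), and 5 higher and 13 lower on plain totals. Its most abundant gene, Mcm6, stood at 248, 248, 241 and 253 CPM and was lower on plain totals (log2 -0.40). Mitosis had 9 of 30 higher and 12 lower (5 and 8 of the 19 sharing under 5%), and 2 higher and 17 lower on plain totals. Top2a, which encodes topoisomerase II alpha, stood at 235, 154, 402 and 411 CPM and fell (log2 -1.08, SE 0.135, edgeR adjusted p = 2.18e-05), and Birc5, which encodes survivin, stood at 272, 303, 195 and 191 CPM and rose (log2 0.57, edgeR adjusted p = 0.000503), but not on plain totals (log2 0.17, edgeR adjusted p = 0.193). Apoptosis and senescence genes had 5 of 15 higher and 3 lower (4 and 3 of the 13 sharing under 5%), and 2 higher and 5 lower on plain totals. Bax stood at 240, 250, 148 and 133 CPM and rose (log2 0.80, 17.1% shared), Mcl1, a survival gene of neutrophils, stood at 137, 154, 112 and 112 CPM and rose (log2 0.37, edgeR adjusted p = 0.0124) but not on plain totals (log2 -0.03), and Bcl2 stood at 32.4, 27.3, 104 and 107 CPM and fell (log2 -1.80, SE 0.127, edgeR adjusted p = 3.2e-08).

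The largest stroke differences among genes sharing under 5%, a choice made after their values were seen, were in genes of varied function. Snu13, which encodes a small nucleolar RNA binding protein, stood at 517, 433, 116 and 105 CPM (log2 2.10), Hist1h4c, a histone gene, at 115, 87.6, 14.9 and 11.1 CPM (log2 2.96), and Slc7a5, a transporter gene of large neutral amino acids, at 76.2, 55.8, 15.7 and 16.6 CPM (log2 2.05). Notch1 stood at 10.4, 10.0, 31.2 and 30.8 CPM (log2 -1.59). All 4 passed the threshold. Gm42418, a gene that overlaps ribosomal RNA sequence and collects its reads, stood at 5290, 5147, 2446 and 2588 CPM, and the nuclear RNA Malat1 at 2642, 2649, 3876 and 4802 CPM. These 2 measures of RNA content moved with stroke, and their part in the differences was not tested.

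Whether age acted alike on both sides of the gate was tested last, by the difference between the age effect in the members and that on the monocyte side, with the library as a block. Of 12056 genes, 15 passed (0.124%), 4 with a higher and 11 with a lower age effect in the members, and 241 were below 0.05 unadjusted. DESeq2 called 1. Elane and Ngp, 2 of the 15, were used by the rule. Ms4a3 stood at 1558, 1494, 1333 and 1295 plain CPM in the members against 925, 386, 164 and 122 plain CPM on the monocyte side. The aged library was thus above its young partner on the monocyte side in both pairs, while the members differed by log2 0.06 after stroke and 0.04 at steady state (difference -0.82, SE 0.123, edgeR adjusted p = 1.9e-07). The call was lost with DESeq2 (adjusted p 1) and on sums of thinned cells (-0.68, edgeR adjusted p 1). Basophil and mast cell markers summed to 11109, 385, 4467 and 2473 plain CPM on the monocyte side, and eosinophil markers to 1391, 5.71, 128 and 15.8 plain CPM, above the young partner in both aged libraries. Without cells rich in these transcripts the Ms4a3 difference was -0.69 and passed the threshold.

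Cebpb stood at 224, 248, 131 and 146 plain CPM in the members and at 199, 105, 106 and 85.2 plain CPM on the monocyte side (difference -0.73, edgeR adjusted p = 0.0188). It was lower in aged than in young members in both pairs and higher in aged than in young monocyte-side cells in both pairs. The call was lost under 6 of 14 alternatives. Cd63 stood at 376, 302, 396 and 387 plain CPM in the members and at 501, 124, 206 and 153 plain CPM on the monocyte side. Its difference of -0.96 was 0.50, and no longer past the threshold, without cells rich in basophil or eosinophil transcripts. Prg2 (difference -4.95) and Prg3 (-2.88) are eosinophil granule genes, and eosinophil-rich cells held 96.1% of the members' Prg2 UMIs in aged marrow after stroke. The monocyte side had sums of 998030, 525255, 4113112 and 5372727 UMIs, against 8935266, 2867543, 22905627 and 24614896 UMIs in the members.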

How the data were processed

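Single-cell 3′ libraries (Chromium) of 4 marrow and 2 blood samples were analysed from the deposited table of raw counts, UMIs per gene and cell, with 23016 genes and 28055 cells. Per the submitters' processing notes, which give neither role nor order, the authors' tools included STAR 2.5.3a, featureCounts 1.6.4 of Subread, Cell Ranger 3.0.2 and UMI-tools, with builds GRCm38 and mm10. The sources used here do not say which of them counted which library.

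The members and the gene lists were chosen with earlier results of these data known. Counts of the members were summed per library and fitted with edgeR 4.0.16 (quasi-likelihood, age plus stroke, TMM, filterByExpr, robust; limma 3.58.1, R 4.3.3), which leaves 1 residual degree of freedom beside those borrowed across genes. The same fit with a library block compared the members with the monocyte side. DESeq2 1.42.0 was an alternative, as was the edgeR fit on plain library totals without TMM, added after the data were seen. Tests were tried on simulated data. Named genes were, per direction, every gene past the threshold where there were 12 or fewer, the 12 genes at 20 CPM or more with the largest smaller pair ratio of the same sign, the rule's genes, the markers, and up to 4 most abundant genes per list; other genes named were chosen after their values were seen. Python 3.11.15, numpy 2.4.6, scipy 1.17.1 and scanpy 1.11.5 (Scrublet) were used. Library totals ran from 31015927 to 72743805 UMIs in marrow. Scrublet marked 0, 1, 21 and 43 members, and simulated doublets passed its threshold in 11.6, 7.75, 38.9 and 41.0%; marked cells were kept except in an alternative. Shared 3′ sequence was taken from GENCODE M21 transcripts of GRCm38.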

Additional observations from a re-analysis of the deposited data

Results flagged for a closer look

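Age differences pointed in opposite directions in the 2 age pairs for 12 of 246 genes examined (at least 0.15 on the log2 scale in each pair), and in each case the difference between the pairs was not tested. Values are log2 ratios of aged over young members, after stroke and then at steady state. The immunoglobulin gene Ighm had 0.66 and -0.52, and the ficolin gene Fcnb 1.37 and -0.48. The eosinophil genes Prg2 and Prg3 had 7.22 and -0.74, and 2.83 and -0.59, and the lymphoid gene Dntt had 3.24 and -0.66. The glycolysis genes Gapdh, Aldoa and Pkm had -0.22 and 0.47, -0.29 and 0.18, and -0.24 and 0.19. The chaperone gene Hspa5 had -0.19 and 0.26, and the chitinase-like gene Chil3 -0.21 and 0.23. The haem synthesis gene Alas1 had 0.18 and -0.48, and the transferrin receptor gene Tfrc 0.29 and -0.44.

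Stroke differences pointed in opposite directions in aged and young marrow for 3 of these genes, again not tested. S100a8 had 0.57 in aged and -0.52 in young marrow, Alas1 had 0.41 and -0.26, and Prg3 had 0.59 and -2.83. The share of members with an S100a8 UMI was below that of B cells in each library.

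The age effect differed between the members and the monocyte side, by the interaction term, for 13 genes not used by the rule. The difference was -4.95 for Prg2, -2.88 for Prg3, -3.69 for Jchain, -1.02 for Fcgr3, -0.96 for Cd63, -0.82 for Ms4a3, -0.81 for Mt1, -0.73 for Cebpb, -0.72 for Anxa1 and -0.36 for Tmsb4x. It was 5.24 for Gm26737, 0.74 for Mir6236 and 0.50 for Gm42418. Some of these rest mostly on 1 library. From aged stroke through young stroke and aged steady state to young steady state, Gm26737 had 0, 66, 5 and 8 UMIs on the monocyte side. Jchain had 32, 1, 80 and 995 UMIs in the members. Prg2 and Prg3 had 0 UMIs on the monocyte side in young marrow after stroke. The monocyte-side age ratio of Mir6236 was -0.90 after stroke and 0.14 at steady state. Gm42418 stood at 4599, 4469, 2815 and 2965 plain CPM in the members and at 14799, 25135, 4019 and 5140 plain CPM on the monocyte side, in the order aged stroke, young stroke, aged steady state and young steady state.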

How the results depend on the processing

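No paired analysis was possible because the labels number no replicates and each group is 1 library; leaving out a library leaves 0 residual degrees of freedom. The age count of 3 was 0 with DESeq2's test, 54 without a count filter (17 lower in aged), 8 without Scrublet doublets (1 lower), 34 with the gate set after thinning (11 lower), 15 at an Mpo minimum of 20 CP10k (2 lower), 19 in cells with 5000 or more UMIs (5 lower), 1 without cells near a deeper barcode and 7 on thinned sums. For the named age genes, counted once per gene and alternative, 295 of 347 values kept direction and side of the threshold, and Gm8451 turned to 0.12 on thinned sums. Most of these genes were chosen for age ratios of the same sign in both pairs, so this count does not speak for all genes. The stroke count of 6029 was 2942 with DESeq2's test (2002 higher, 940 lower, against 3241 and 2788), 1049 on thinned sums and 3951 without genes sharing 3′ sequence, while plain library totals, added after the data were seen, gave 1629 higher and 6055 lower. For the named stroke genes, counted in the same way, 319 of 323 values kept direction and side. Those genes were chosen for the largest stroke ratios of the same sign in both pairs, so this count does not speak for the other calls. Of the list counts, 99 of 672 moved by over 1.5 times. The count of 15 age differences between the sides was 30 on plain library totals, 1 with DESeq2's test, 3 at Mpo 20, 26 at a granule maximum of 50 CP10k, 7 without cells near a deeper barcode, 8 without basophil- and eosinophil-rich cells and 1 on thinned sums. There, Jchain turned to 5.72 with the gate after thinning and 1.21 at Mpo 20, Mir6236 to -0.037 at Mpo 20, Gm26737 to -2.65 with the gate after thinning, and Cd63 to 0.50 and Anxa1 to 0.016 without basophil- and eosinophil-rich cells. The causes were not tested. Member shares were 8.77, 4.20, 19.8 and 21.7% with the gate after thinning and 9.04, 5.70, 20.7 and 22.6% at Mpo 20, in the order aged stroke, young stroke, aged and young steady state. With 5000 or more UMIs they were 3.95% in young stroke, 24.8% in aged and 30.4% in young steady-state marrow. The tests cannot speak of differences between mice, and depth limits the young stroke members most, with 169 cells and 2867543 UMIs. Of those UMIs, 94.9% came from the 52 cells with 5000 or more UMIs.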
